A study of Homo sapiens with 29 samples.

Results

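RUVBL1 and RUVBL2 are the paired ATPases of the INO80 chromatin remodelling complex, and their occupancy was compared here in HepG2 cells. The members are all peaks of the RUVBL1 list and all peaks of the RUVBL2 list, 18454 of the 151036 peaks in the 9 deposited lists of the study. A peak was called joint when it shared at least 1 bp with a peak of the other ATPase, and alone otherwise. Of 5518 RUVBL1 peaks, 3561 were joint and 1957 were alone. Of 12936 RUVBL2 peaks, 3388 were joint and 9548 were alone.

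Chromatin immunoprecipitation followed by sequencing (ChIP-seq) was done for RUVBL1 in HepG2 from 2 libraries and for RUVBL2 in HepG2 from 2 libraries. INO80 (3 libraries) and MCRS1 (2 libraries) in HepG2, and RUVBL2, INO80, MCRS1 and YY1 (2 libraries each) in Huh7, served for comparison. YY1 peaks in HepG2 came from ENCODE reads, per the series description. HepG2 and Huh7 are established human liver cancer cell lines, and the cells of these ChIP groups are labelled with no drug and no genetic change. The labels give the RUVBL1 antibody as vendor bethyl, catalogue ab51500 and lot A304-716A-T-1, and the RUVBL2 antibody as vendor bethyl, catalogue A302-537A and lot A302-536A-T-1. The vendor and catalogue code of the RUVBL1 entry do not match each other in form, so the antibody cannot be told from the label. In the RUVBL2 entry the lot code A302-536A-T-1 differs in number from the catalogue code A302-537A, so that label is not settled either. Each factor has 1 list of positions, without heights or read counts, so the spread between libraries and the depth behind a peak are unknown. The intervals below are 95% intervals that cover counting error only, and neighbouring peaks are not independent of each other.

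RUVBL1 and RUVBL2 belong to the AAA+ family of ATPases and assemble into rings in which both proteins alternate. The rings are subunits of the INO80 and SRCAP remodellers and of the TIP60 acetyltransferase complex. They also work as a chaperone, with PIH1D1 and RPAP3 in the R2TP complex, in the assembly of RNA polymerases, snoRNPs and PI3K-like kinases. MCRS1 is a subunit of INO80, and YY1 is a zinc-finger transcription factor that binds DNA by itself and associates with INO80.

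The classes differed in base composition, and 6 narrow peaks show it below. Each is a peak of at most 200 bp whose GC content lies near the median of its class at coding starts or away from them, outside annotated exons. The sequences are the hg19 (GRCh37) plus strand over the whole peak. Capitals mark the SP box GGGGCGGGG or its reverse complement CCCCGCCCC, and the CCAAT box, which NFY binds.
IRF2BP1, joint, 481 bp from the start, chr19:46389880-46390032: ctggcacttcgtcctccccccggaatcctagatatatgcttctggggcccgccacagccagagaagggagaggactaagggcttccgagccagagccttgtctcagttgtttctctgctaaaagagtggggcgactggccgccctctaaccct
PPP6R2, joint, in an intron, chr22:50826098-50826295: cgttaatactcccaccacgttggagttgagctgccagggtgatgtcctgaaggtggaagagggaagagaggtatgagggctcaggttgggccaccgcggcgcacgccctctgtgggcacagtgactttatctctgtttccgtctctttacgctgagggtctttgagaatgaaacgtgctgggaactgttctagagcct
SLAIN2, RUVBL1 alone, 370 bp from the start, chr4:48343030-48343176: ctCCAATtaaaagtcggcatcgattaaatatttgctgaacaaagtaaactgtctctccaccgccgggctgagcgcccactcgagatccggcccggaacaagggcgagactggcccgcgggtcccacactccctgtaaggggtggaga
TBX3, RUVBL1 alone, intergenic, 14890 bp from the start, chr12:115106356-115106505: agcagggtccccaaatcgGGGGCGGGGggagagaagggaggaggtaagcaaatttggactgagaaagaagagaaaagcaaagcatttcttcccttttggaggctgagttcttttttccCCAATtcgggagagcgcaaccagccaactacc
SCAMP1, RUVBL2 alone, 409 bp from the start, chr5:77655876-77656026: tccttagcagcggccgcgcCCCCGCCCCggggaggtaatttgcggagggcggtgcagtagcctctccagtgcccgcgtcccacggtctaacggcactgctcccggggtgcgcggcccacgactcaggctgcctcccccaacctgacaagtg
PPP1R14B, RUVBL2 alone, past the gene end, chr11:64011722-64011921: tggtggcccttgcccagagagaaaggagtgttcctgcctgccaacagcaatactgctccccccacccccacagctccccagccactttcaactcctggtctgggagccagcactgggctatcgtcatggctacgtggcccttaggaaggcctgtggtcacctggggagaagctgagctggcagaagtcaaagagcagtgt
At coding starts the SLAIN2 peak holds 57.1% GC and the SCAMP1 peak 70.9%. The SP box marked in the TBX3 peak is uncommon for its class. Of 1108 RUVBL1-alone peaks away from starts, 14 (1.26%) had that box in the 300 bp about the centre.

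Most RUVBL1 peaks lay at RUVBL2, and most RUVBL2 peaks lay away from RUVBL1. The joint share was 64.5% of RUVBL1 peaks (63.3 to 65.8%) and 26.2% of RUVBL2 peaks (25.4 to 27%). In base pairs, 60.2% of the RUVBL1 sequence lay inside RUVBL2 peaks and 20.4% of the RUVBL2 sequence inside RUVBL1 peaks. The joint peaks formed 3322 regions, of which 3068 (92.4%) held 1 peak of each ATPase. A further 194 regions held several RUVBL1 peaks under 1 RUVBL2 peak, and 52 held several RUVBL2 peaks under 1 RUVBL1 peak. The shares depend on width and on list length. With all peaks redrawn as 200 bp around their centres, the joint share was 33.1% of RUVBL1 and 14.1% of RUVBL2 peaks. With the RUVBL2 list cut to its 5518 widest peaks, it was 44.7% of RUVBL1 and 41.1% of RUVBL2 peaks.

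Where both ATPases were present, their peaks did not have the same shape. The median width was 342 bp for joint RUVBL1 peaks and 719.5 bp for joint RUVBL2 peaks. The centres of overlapping peaks lay a median of 197.5 bp apart. The RUVBL2 peak was the wider in 2557 of 3627 overlapping pairs (70.5%). The RUVBL1 peak lay wholly inside the RUVBL2 peak in 1437 pairs (39.6%), and the reverse held in 518 pairs (14.3%). Across pairs the log2 widths had a Pearson r of 0.28, a description over peaks of the same libraries.

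Alone peaks were narrower than joint ones, and RUVBL1 alone was the narrowest class. Its median was 214 bp, against 288 bp for RUVBL2 alone, a difference in mean log2 width of -0.51 (-0.54 to -0.47). Wider peaks were more often joint, so width is tied to the rule that made the classes. Of RUVBL1 peaks over 809 bp, the widest of 5 equal bins of both lists together, 92.5% were joint. Of those up to 186 bp, 45.6% were. For RUVBL2, 52.2% of the peaks over 809 bp and 12% of those up to 186 bp were joint.

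**Figure D1:**
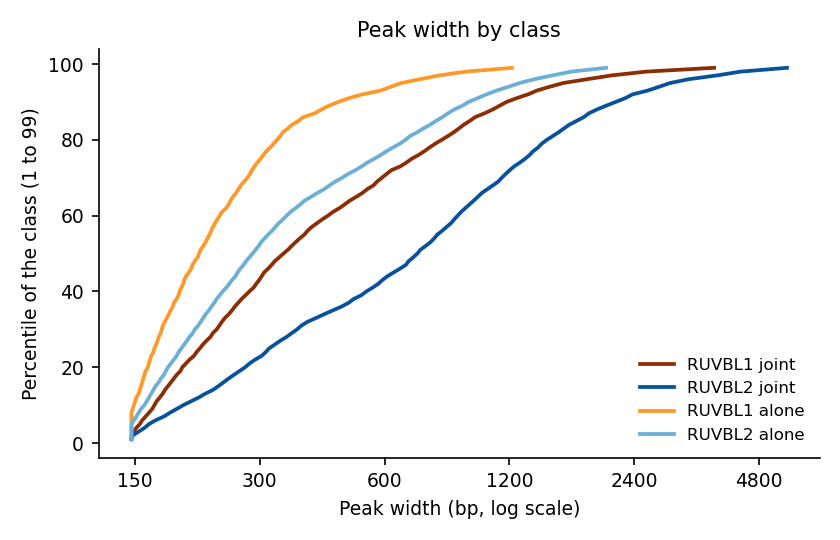
Peak width (bp, log scale) against percentile within each class, for joint and alone peaks of RUVBL1 and RUVBL2 in HepG2. Joint RUVBL2 peaks lie farthest right, with a median of 719.5 bp, and RUVBL1-alone peaks farthest left, with a median of 214 bp.

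Joint peaks nearly always carried the other members of the complex. INO80 was present at 95.9% of joint RUVBL1 and 96.6% of joint RUVBL2 peaks, against 76.1% of RUVBL1-alone and 75.9% of RUVBL2-alone peaks. MCRS1 was present at 98.0% of joint RUVBL1 and 98.3% of joint RUVBL2 peaks, against 80.1% of RUVBL1-alone and 83.2% of RUVBL2-alone peaks. YY1 was present at 90.4% of joint RUVBL1 and 92.4% of joint RUVBL2 peaks, against 70.3% of RUVBL1-alone and 71.8% of RUVBL2-alone peaks. INO80, MCRS1 and YY1 together were present at 88.3% of joint RUVBL1 and 90.7% of joint RUVBL2 peaks, against 57.6% of RUVBL1-alone and 65.2% of RUVBL2-alone peaks. Joint peaks are also wider. With all peaks redrawn as 200 bp, INO80 was present 25 points more often at joint than at alone RUVBL1 peaks (22.3 to 27.7) and 13.8 points more often at joint than at alone RUVBL2 peaks (11.4 to 16.3). In the wider 50% of each list, joint minus alone RUVBL2 peaks was 13.1 points for INO80, 8.97 for MCRS1 and 6.92 for YY1, against 20.7, 15.1 and 20.5 points as deposited. With each longer list cut to its 5518 widest peaks, joint minus alone RUVBL1 peaks was 43.8 points for INO80, 45.7 for MCRS1 and 36.4 for YY1. As deposited these differences were 19.8, 17.9 and 20.1 points. That cut kept only wide INO80, MCRS1 and YY1 peaks but every RUVBL1 peak, so it changed width along with length.

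The alone classes were compared partner by partner. RUVBL1 alone minus RUVBL2 alone was 0.17 points for INO80 (-1.94 to 2.21), -3.04 for MCRS1 (-5.01 to -1.16) and -1.49 for YY1 (-3.74 to 0.69). The intervals for INO80 and YY1 include 0 and that for MCRS1 does not. These values rest on the peaks as deposited. With all peaks redrawn as 200 bp the differences became -12.7 points for INO80, -16.8 for MCRS1 and -8.02 for YY1. With RUVBL2 and its partners each cut to the 5518 widest peaks, they became -20.4 points for INO80, -25.6 for MCRS1 and -23.7 for YY1. Averaged over bins of GC content below 70%, they turned to 15.3 points for INO80, 9.80 for MCRS1 and 20.2 for YY1. That setting left out the peaks of 70% GC and over, 3539 of 9548 RUVBL2-alone and 2 of 1957 RUVBL1-alone peaks. The RUVBL2-alone peaks left out carried INO80 at 96.3%, MCRS1 at 97.8% and YY1 at 94.3%.

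No partner was found at 195 RUVBL1-alone peaks (9.96%) and 1217 RUVBL2-alone peaks (12.7%), against 31 joint RUVBL1 peaks (0.87%). These partner-free peaks were narrow, with medians of 195 bp for RUVBL1 alone and 194 bp for RUVBL2 alone, and few lay at a coding start (9.74% in RUVBL1 alone and 6.98% in RUVBL2 alone). A peak list shows no binding below its own calling threshold, so a partner may be present there at a level not called.

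**Figure D2:**
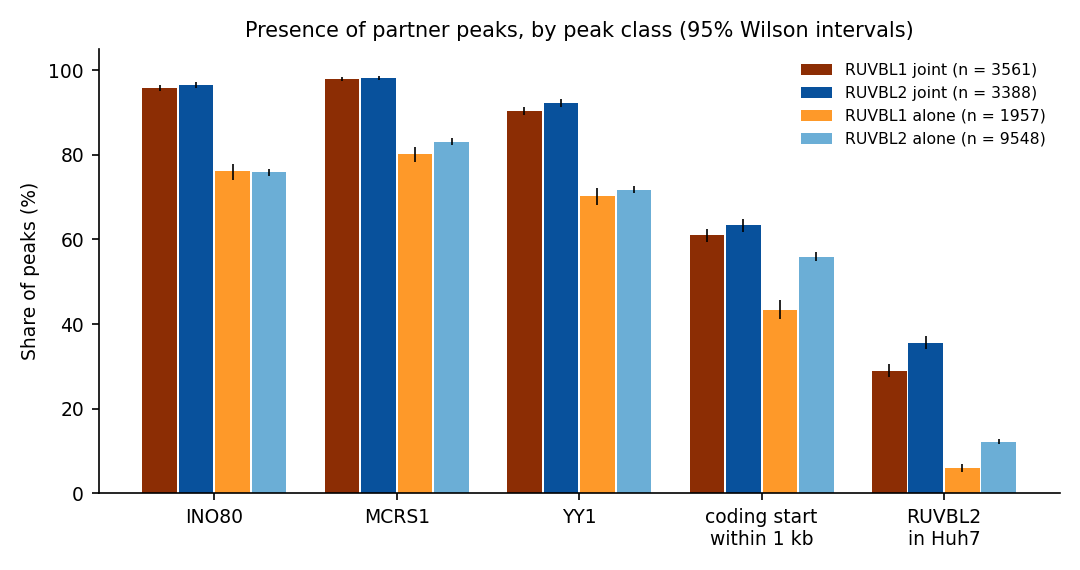
Share of peaks (%, with 95% Wilson intervals) that overlap INO80, MCRS1 or YY1 in HepG2, lie within 1 kb of a coding start, or overlap RUVBL2 in Huh7, for each class. As deposited, joint peaks stand above alone peaks, but the order for RUVBL2 at coding starts turned under 4 other settings (to as low as -4.26 points), and the alone classes differ most at coding starts, with 43.4% for RUVBL1 and 55.9% for RUVBL2.

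Alone peaks near the other ATPase were similar in number in both lists, but made up a larger share of the RUVBL1-alone class. Of 1957 RUVBL1-alone peaks 533 (27.2%) had a RUVBL2 peak within 500 bp, and the median distance was 3957 bp. Of 9548 RUVBL2-alone peaks 550 (5.76%) had a RUVBL1 peak within 500 bp, and the median distance was 46785.5 bp. These shares and distances depend on list length, with 12936 RUVBL2 and 5518 RUVBL1 peaks, which cannot be told apart from occupancy. Among RUVBL1-alone peaks on an INO80 peak, 585 of 1489 (39.3%) shared that INO80 peak with RUVBL2 elsewhere in it. Among RUVBL2-alone peaks on an INO80 peak, 810 of 7248 (11.2%) shared it with RUVBL1. Read from the side of INO80, 3527 of its 23665 peaks (14.9%) held both ATPases, 919 (3.88%) held RUVBL1 only and 6197 (26.2%) held RUVBL2 only. The median width of those INO80 peaks was 1467 bp with both, 641 bp with RUVBL1 only, 979 bp with RUVBL2 only and 334 bp with neither.

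Joint peaks were mostly promoter peaks, and the alone classes parted by place. A coding start lay within 1 kb of 61.0% of joint RUVBL1 and 63.3% of joint RUVBL2 peaks. It did so for 43.4% of RUVBL1-alone peaks and 55.9% of RUVBL2-alone peaks, a difference of -12.6 points (-15.0 to -10.1). RUVBL1-alone peaks were more often intergenic, at 25.8% against 17.9% in RUVBL2 alone (a difference of 7.88 points, 5.83 to 10.0), and more often intronic, at 23.7% against 19.3% in RUVBL2 alone (4.37 points, 2.37 to 6.45). Averaged over bins of GC content below 70%, the promoter difference turned to 15.7 points, higher in RUVBL1 alone. That setting left out 3539 RUVBL2-alone and 2 RUVBL1-alone peaks of 70% GC and over. A coding start lay within 1 kb of 84.1% of those RUVBL2-alone peaks. The promoter difference was -4.72 points with peaks redrawn as 200 bp and -28.6 with each longer list cut to its 5518 widest peaks. For RUVBL2, joint minus alone was 7.37 points as deposited, and it turned to -2.32 with at least 50% of the peak covered, -0.40 at 200 bp, -2.78 in the wider 50% of each list and -4.26 with lists cut.

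The lists differed in base composition, with RUVBL1 on the side of lower GC content. GC content was measured in the 300 bp about each peak centre. The median was 57.7% for joint RUVBL1 and 60.3% for joint RUVBL2 peaks, against 54.0% for RUVBL1-alone and 66.7% for RUVBL2-alone peaks. The means of the alone classes differed by -11.7 points (-12.1 to -11.4). At coding starts the median was 57.3% for RUVBL1 alone and 71.0% for RUVBL2 alone, and away from starts it was 52% for RUVBL1 alone and 60% for RUVBL2 alone. Windows of 70% GC and over made up 24 of 5518 RUVBL1 peaks (0.435%) and 3971 of 12936 RUVBL2 peaks (30.7%). The other 7 lists held between 9.39% (MCRS1 in Huh7) and 32.9% (RUVBL2 in Huh7) such windows, and 29.0% of the promoters of all coding genes were in this range. The RUVBL1 share lay below that of each other list. The peak lists hold no reads, and the part of library GC bias in this contrast was not tested.

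**Figure D3:**
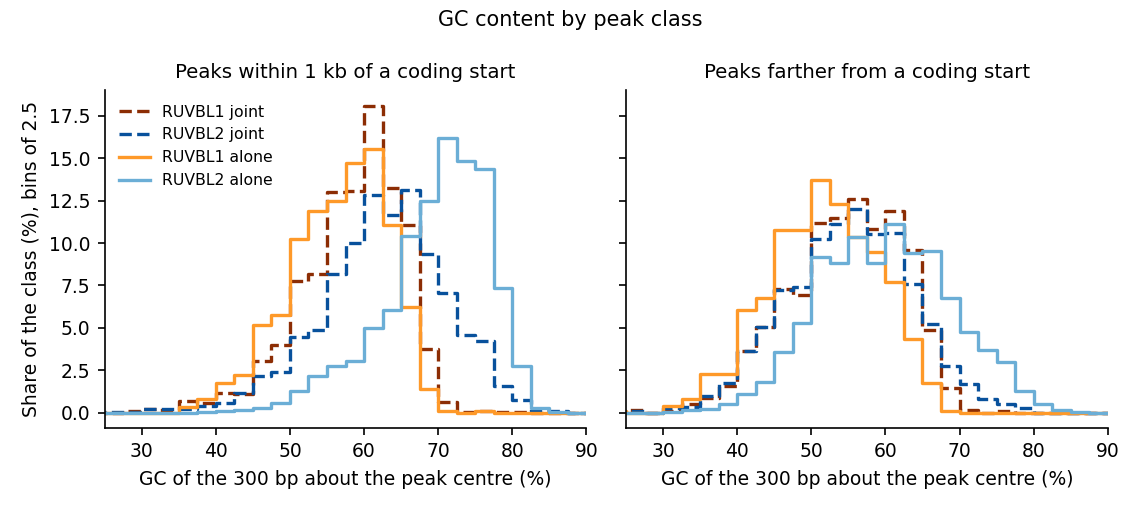
Distribution of GC content (%) in the 300 bp about the centre of each peak, as the share of each class per bin, for peaks within 1 kb of a coding start (left) and farther away (right). RUVBL1 joint and RUVBL1 alone end near 70% GC, while RUVBL2 alone at coding starts has its median at 71.0%.

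The joint share of RUVBL2 peaks was lower at higher GC content. It was 45.4% under 50% GC, 35.6% from 50 to 60%, 28.4% from 60 to 70% and 10.9% from 70% upward. Among RUVBL2 peaks over 809 bp that carried INO80, MCRS1 and YY1, the same shares were 87.0%, 74.4%, 58.4% and 30.8%. The RUVBL1 list showed the opposite order, with 50.6% of peaks joint from 40 to 50% GC, 62.6% from 50 to 60% and 75.8% from 60 to 70%. Inside joint regions the difference was small, with a median paired difference of -1 GC point, RUVBL1 minus RUVBL2. In the 3068 regions with 1 peak of each, the RUVBL1 centre was lower in GC than the RUVBL2 centre in 1835 (59.8%) and higher in 1070 (34.9%).

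Several short sequence words differed between the alone classes, and others lay at closer shares. The SP box GGGGCGGGG, searched on both strands, lay in 5.00% of joint RUVBL1 and 9.27% of joint RUVBL2 windows, against 2.76% of RUVBL1-alone and 12% of RUVBL2-alone windows. It lay in 24.5% of windows of the same length at the starts of all coding genes. Unless said otherwise, the class shares here mix peaks at and away from starts, unlike the promoter shares. For peaks at coding starts the SP box lay in 6.72% of joint RUVBL1 and 12.9% of joint RUVBL2 windows. The values at coding starts were 4.71% for RUVBL1 alone and 17.9% for RUVBL2 alone. The CCAAT box was in 27.4% of joint RUVBL1 and 26.2% of joint RUVBL2 windows, against 28.5% of RUVBL1-alone and 17.4% of RUVBL2-alone windows and 35.9% of all promoters. The YY1 word AANATGGCG was in 6.21% of joint RUVBL1 and 6.11% of joint RUVBL2 windows, against 5.16% of RUVBL1-alone and 2.14% of RUVBL2-alone windows and 4.97% of all promoters. For peaks at coding starts it was in 8.98% of joint RUVBL1 and 8.67% of joint RUVBL2 windows, against 9.66% of RUVBL1-alone and 3.20% of RUVBL2-alone windows. The AP-1 word TGANTCA was in 7.97% of RUVBL1-alone and 4.20% of RUVBL2-alone windows, and the FOXA word TGTTTAC in 4.29% of RUVBL1-alone and 1.94% of RUVBL2-alone windows. The E-box CACGTG, bound by MYC and USF factors, was in 6.54% of RUVBL1-alone and 7.25% of RUVBL2-alone windows, and the ETS word CCGGAAGT in 2.04% of RUVBL1-alone and 2.36% of RUVBL2-alone windows. The words searched for NRF1, CRE-binding factors, CEBP and HNF4A lay in between 0.14% and 0.77% of the windows of either alone class. These are matches of letters, and windows of the classes differ in GC content.

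Wide RUVBL1-alone peaks often lay over the bodies and ends of genes. Of the 59 RUVBL1-alone peaks over 809 bp, 22 (37.3%) lay within 1 kb of a gene end and 20 (33.9%) at a coding start. Of the 1388 such RUVBL2-alone peaks, 201 (14.5%) lay at a gene end and 1046 (75.4%) at a coding start. GC content was under 50% in 33 of the 59 (55.9%) and in 45 of the 1388 (3.24%).

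The widest was 5353 bp over IGFBP1, which encodes an insulin-like growth factor binding protein secreted by liver (chr7:45928746-45934098). It began 659 bp past the gene start, where RUVBL2 had a separate peak of 488 bp. MALAT1, an abundant nuclear long non-coding RNA, had 3421 bp of RUVBL1 (chr11:65271555-65274975). HSP90AB1, which encodes a cytosolic HSP90 chaperone, had 2792 bp over the gene body (chr6:44218309-44221100), apart from a joint peak at its start. ERRFI1, which encodes an inhibitor of EGFR signalling, had 2160 bp in the gene. The end of GDF15, a stress-induced cytokine gene, had 1559 bp. SELENOP, the gene of a plasma selenium carrier, had 1591 bp, HNRNPA1, the gene of an RNA-binding splicing factor, 1488 bp, and SZRD1P1, a pseudogene beside MDM2, 1509 bp. A peak of 1553 bp lay at ENSG00000267168. All of the 10 widest had under 50% GC at the centre, 2 lay at a coding start and 2 carried YY1, while RUVBL2 was present in Huh7 at 5.

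Without INO80, MCRS1 and YY1 the widest RUVBL1-alone peaks lay past the end of FST (1284 bp), in HNRNPA2B1 (1260 bp) and in TUBA1C (1057 bp). The next were a peak of 1041 bp within 1 kb of a coding gene end and one of 989 bp in DDIT3 and MARS1. For the peak of 1041 bp the nearest coding start was that of ATIC, 47110 bp away. FST encodes the activin antagonist follistatin, TUBA1C an alpha-tubulin and DDIT3 a stress-induced transcription factor. None of these 5 peaks lay at a coding start.

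The widest RUVBL2-alone peaks lay mostly at gene starts in GC-rich sequence. BAHCC1, which encodes a chromatin protein with a BAH domain, had the widest with 4735 bp (chr17:79366805-79371539). CCND1, the gene of cyclin D1, had 4470 bp from 425 bp before to 4044 bp past its start (chr11:69455499-69459968). NOTUM, which encodes a secreted Wnt-inactivating enzyme, had 4274 bp, FASN, the fatty acid synthase gene, 4116 bp in the gene, and PIM3, which encodes a kinase, 4055 bp. ESPN had 3937 bp, TYMP and ODF3B 3813 bp, ASPSCR1 3809 bp, and EPS8L2 and DEAF1 3791 bp. A peak of 3875 bp lay in the array of 5S ribosomal RNA genes, whose copies are near-identical, so the place of its reads is uncertain. Of these 10, 7 lay at a coding start, 9 carried INO80, MCRS1 and YY1, and the GC content ran from 59.0 to 77.0%. Without any partner the widest were in CFAP410 (1274 bp), SLC17A9 (1218 bp), LRRC47 (1162 bp), TAS1R3 (1131 bp) and VASN with CORO7 (1072 bp).

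The widest joint regions showed how unequal the shapes could be. At CENPX and LRRC45 RUVBL1 covered 2409 bp and RUVBL2 14197 bp. MIDN had 1799 bp of RUVBL1 in 3 peaks under a RUVBL2 peak of 11879 bp, and TNRC18 had 4068 bp in 6 peaks under one of 11646 bp. SLC16A3, a lactate transporter gene, had 5874 bp of RUVBL1 in 4 peaks under 13350 bp of RUVBL2. The order was the other way at RCC1, which encodes the RAN exchange factor, where 1 RUVBL1 peak of 11029 bp held 4 RUVBL2 peaks that summed to 7614 bp. NEAT1, the long non-coding RNA of paraspeckles, had 12162 bp of RUVBL1 and 9600 bp of RUVBL2 in 3 peaks. MIR21 with VMP1 had 10789 bp of RUVBL1 and 8177 bp of RUVBL2, and the beta-actin gene ACTB 10532 bp of RUVBL1 and 8650 bp of RUVBL2. DHRS2 was nearly even, with 11577 bp of RUVBL1 and 12826 bp of RUVBL2. In single pairs RUVBL1 was the wider by 57.4 times at RCC1, 35.6 times at the splicing factor gene SRSF6, 22.2 times at the elongation factor gene EEF1A1 and 21.9 times at NEAT1. RUVBL2 was the wider by 80.3 times at MIDN, 73.8 times at SLC16A3, 70.2 times at TNRC18, 63.2 times at the start of APOB and 54.8 times in the 5S ribosomal RNA array. A single pair leaves out other peaks in the same region, so these ratios do not compare total coverage. At the start of APOB the pair was a RUVBL1 peak of 157 bp and a RUVBL2 peak of 9927 bp. Another RUVBL1 peak, of 9316 bp, overlapped that same RUVBL2 peak.

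Neighbouring liver genes parted by ATPase. ALB, the albumin gene, had no RUVBL1 peak and 6 RUVBL2 peaks that summed to 3800 bp, under an INO80 peak of 15541 bp. AFP, the alpha-fetoprotein gene next to it, had 5 RUVBL1 peaks (3390 bp) and 6 RUVBL2 peaks (2776 bp). APOB, the gene of apolipoprotein B, had 16 RUVBL1 peaks (21762 bp) and 12 RUVBL2 peaks (31591 bp) along the gene. At CCND1 RUVBL1 was not called within the gene, and its nearest peaks lay 13597 and 16632 bp past the start, each overlapping RUVBL2. At MDM2, which encodes the ubiquitin ligase of p53, RUVBL1 had 2424 bp and RUVBL2 3656 bp in the gene.

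**Figure D4:**
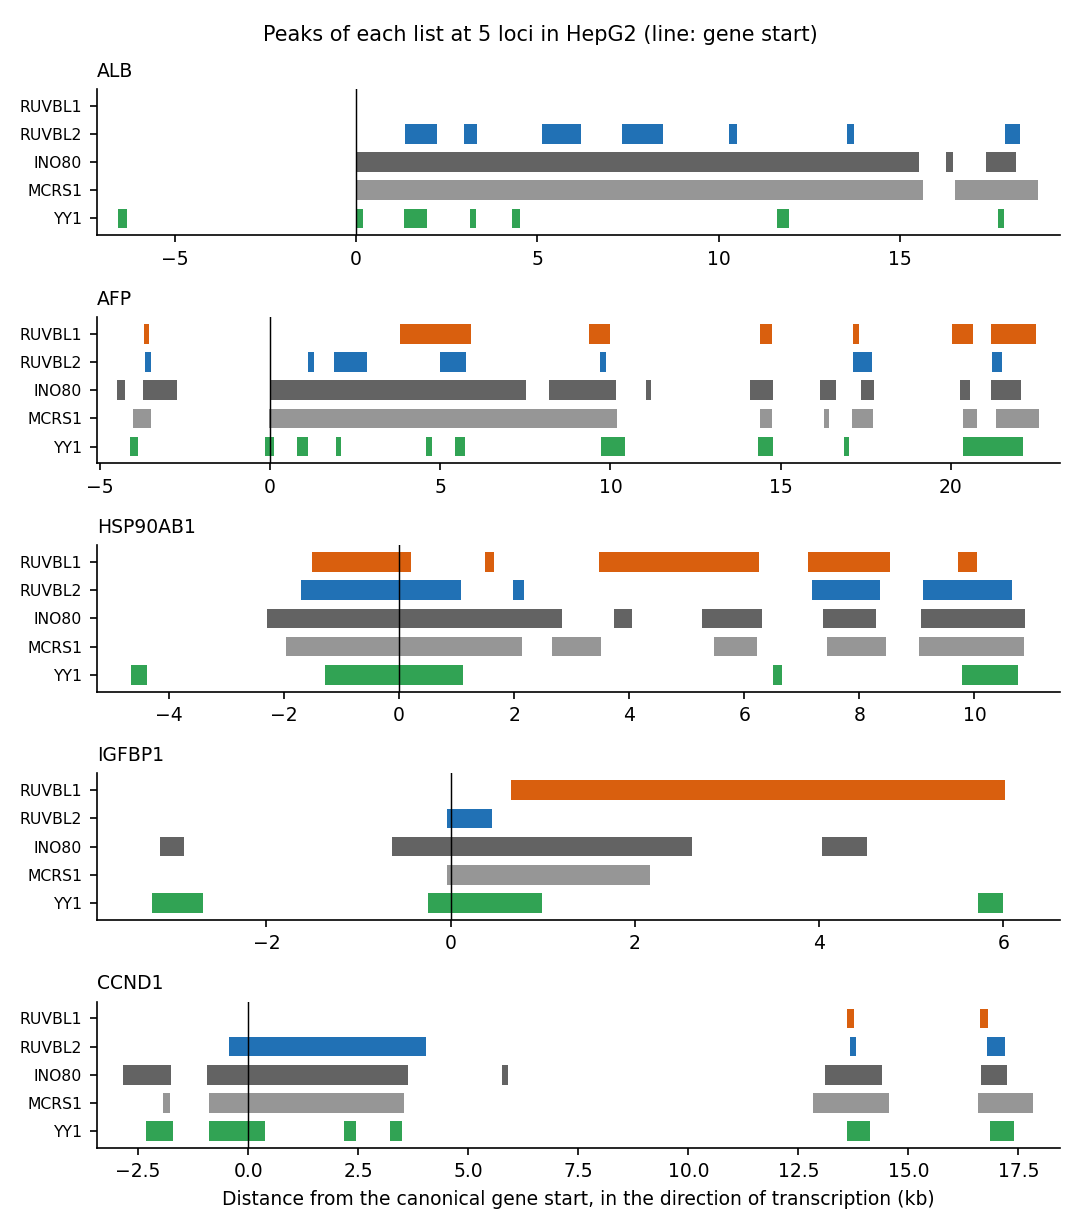
Peaks of RUVBL1, RUVBL2, INO80, MCRS1 and YY1 at 5 loci in HepG2, drawn as bars against distance (kb) from the canonical gene start in the direction of transcription. ALB shows RUVBL2 bars and no RUVBL1 bar, IGFBP1 shows the 5353 bp RUVBL1 bar beyond a short RUVBL2 bar, and CCND1 shows the 4470 bp RUVBL2 bar at the start without RUVBL1.

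At the level of genes, most genes with RUVBL1 also had RUVBL2. A peak within 1 kb of a start was found for 3326 of 19785 coding genes with RUVBL1 (16.8%) and for 7737 with RUVBL2 (39.1%). Both were at 2862 genes (14.5%), RUVBL1 only at 464 (2.35%), RUVBL2 only at 4875 (24.6%) and neither at 11584 (58.5%). The shared genes were 86.0% of the RUVBL1 genes and 37.0% of the RUVBL2 genes, and 2444 of the 2862 (85.4%) had a joint peak at the start. INO80 was at 99.9% of genes with both, 94.6% with RUVBL1 only, 98.3% with RUVBL2 only and 39.0% with neither. The median promoter GC was 63.7% with both, 60% with RUVBL1 only, 69.7% with RUVBL2 only and 60.3% with neither. Among genes with promoters of 70% GC and over, 11.9% had RUVBL1 and 53.5% RUVBL2. Among those from 50 to 60% GC, 21.8% had RUVBL1 and 30.5% RUVBL2. With the RUVBL2 list cut to the length of the RUVBL1 list, the genes with RUVBL1 only numbered 1292, and over all annotated genes they were 756.

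The genes of the RUVBL chaperone had RUVBL1 at 7 of 20 and RUVBL2 at 17 of 20, beside RUVBL1 at 16.8% and RUVBL2 at 39.1% of all coding genes. PIH1D1, the R2TP adaptor, had a RUVBL1 peak of 332 bp and a RUVBL2 peak of 690 bp at its start. RPAP3, the R2TP scaffold, had RUVBL2 (269 bp) without RUVBL1. URI1 (383 bp), PFDN2 (282 bp) and PDRG1 (190 bp), of the prefoldin-like module, also had RUVBL2 only. TTI1, of the kinase-assembly complex TTT, had 622 bp of RUVBL1 and 1048 bp of RUVBL2, and its partner TELO2 had 173 bp of RUVBL2 only. At the RUVBL1 gene itself RUVBL1 covered 251 bp and RUVBL2 688 bp, while the RUVBL2 gene, TTI2 and UXT had neither.

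RUVBL1 was at 16.8% and RUVBL2 at 39.1% of all coding genes. The subunits of INO80, SRCAP and TIP60 had RUVBL1 at 16 of 32 (50%) and RUVBL2 at 27 of 32 (84.4%). Both were at 14, among them INO80 (278 bp of RUVBL1 and 755 bp of RUVBL2), SRCAP (351 bp of RUVBL1 and 1648 bp of RUVBL2), KAT5, the TIP60 acetyltransferase gene (277 bp of RUVBL1 and 374 bp of RUVBL2), INO80D (467 bp of RUVBL1 and 1973 bp of RUVBL2) and UCHL5 (950 bp of RUVBL1 and 1111 bp of RUVBL2). MCRS1 (166 bp) and MORF4L2 (157 bp) had RUVBL1 only. RUVBL2 only was at 13 genes, with 2068 bp at MRGBP, 2041 bp at MBTD1 and 813 bp at YY1. ACTR6, INO80C and VPS72 had neither. Of 19 client genes of the chaperone, 7 had RUVBL1 (36.8%, 19.1 to 59.0%) and 10 had RUVBL2 (52.6%, 31.7 to 72.7%). The RUVBL2 interval includes the 39.1% of all coding genes. The kinase genes MTOR (262 bp of RUVBL1 and 581 bp of RUVBL2), SMG1 (353 bp of RUVBL1 and 1524 bp of RUVBL2), PRKDC (336 bp of RUVBL1 and 314 bp of RUVBL2) and ATM (708 bp of RUVBL1 and 161 bp of RUVBL2) had both. NOP58, a box C/D snoRNP gene, had 1534 bp of RUVBL1 and 1505 bp of RUVBL2, whereas NOP56 had 5805 bp of RUVBL2 and no RUVBL1.

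Among the other lists, cytosolic ribosomal proteins had the highest shares, beside RUVBL1 at 16.8% and RUVBL2 at 39.1% of all coding genes. RUVBL1 was at 64 of 78 (82.1%) and RUVBL2 at 73 of 78 (93.6%). RPL13A had 3763 bp of RUVBL1 and 4336 bp of RUVBL2, and RPS2 3642 bp of RUVBL1 and 4106 bp of RUVBL2. RPL13 had 340 bp of RUVBL1 and 5968 bp of RUVBL2. Replication-dependent histone genes had RUVBL1 at 27 (57.4%) and RUVBL2 at 32 (68.1%) of 47, all 27 shared. One of the 47, H4C14, was no entry of the list, was matched through a shared synonym and had both. The histone genes had median widths of 1352 bp for RUVBL1 and 1347 bp for RUVBL2. Histone genes lie close together and resemble each other, so a peak can serve several of them, such as the pair H2AC6 and H2BC4 (1753 bp of RUVBL1 and 4564 bp of RUVBL2) and the pair H1-4 and H2BC5 (2408 bp of RUVBL1 and 2887 bp of RUVBL2). The megabase of chromosome 6 from 27000001 to 28000000, within the main histone gene cluster, held 37 RUVBL1 and 23 RUVBL2 peaks, although RUVBL2 had the longer list. The megabase before it held 34 RUVBL1 and 32 RUVBL2 peaks, and the megabase after it 35 RUVBL1 and 28 RUVBL2 peaks.

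General chaperone genes had RUVBL1 at 16 (53.3%) and RUVBL2 at 25 (83.3%) of 30. MYC-related and nucleolar genes had RUVBL1 at 16 (57.1%) and RUVBL2 at 24 (85.7%) of 28. The shares over all coding genes were 16.8% for RUVBL1 and 39.1% for RUVBL2. HSPD1 and HSPE1, mitochondrial chaperonin genes that share a promoter, had 1366 bp of RUVBL1 and 2380 bp of RUVBL2. HSPA1B, a heat-inducible HSP70 gene with a near-identical copy beside it, had 764 bp of RUVBL1 and 4167 bp of RUVBL2, and the chaperonin gene TCP1 390 bp of RUVBL1 and 2737 bp of RUVBL2. In the MYC-related list TAF1D, of RNA polymerase I initiation, had 2604 bp of RUVBL1 and 1940 bp of RUVBL2, and EIF4A1, a translation initiation helicase gene, 1324 bp of RUVBL1 and 2399 bp of RUVBL2. The MYC gene itself had 1270 bp of RUVBL1 and 3048 bp of RUVBL2. Immediate-early genes had RUVBL1 at 12 (36.4%, 22.2 to 53.4%) and RUVBL2 at 18 (54.5%, 38.0 to 70.2%) of 33, and the RUVBL2 interval includes the 39.1% of all coding genes. Among them CCN2 was wider for RUVBL1 (4233 bp of RUVBL1 and 2238 bp of RUVBL2) and JUND for RUVBL2 (no RUVBL1 and 3714 bp of RUVBL2). EGR1 and JUNB also had RUVBL2 only (1036 bp at EGR1 and 1204 bp at JUNB).

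Hepatocyte transcription factors had RUVBL1 at 7 (31.8%, 16.4 to 52.7%) and RUVBL2 at 14 (63.6%, 43.0 to 80.3%) of 22. The RUVBL1 interval includes the 16.8% of all coding genes. XBP1, which drives the unfolded protein response, had 3625 bp of RUVBL1 and 4061 bp of RUVBL2, while FOXA2 had 295 bp of RUVBL1 and 3511 bp of RUVBL2. CEBPB (2893 bp), CEBPA (1164 bp) and HNF4A (690 bp) had RUVBL2 only. Apolipoprotein and lipid transport genes had RUVBL1 at 9 (42.9%) and RUVBL2 at 16 (76.2%) of 21. APOA1, of high-density lipoprotein, had 4378 bp of RUVBL1 and 2562 bp of RUVBL2. MTTP, which loads lipid onto APOB, had RUVBL1 only (1021 bp), and SCARB1, which encodes a receptor for high-density lipoprotein, had RUVBL2 only (1111 bp). Plasma protein genes had RUVBL1 at 14 (31.8%, 20 to 46.6%) and RUVBL2 at 20 (45.5%, 31.7 to 59.9%) of 44, and the RUVBL2 interval includes the 39.1% of all coding genes. FGL1, the gene of a fibrinogen-like liver protein, had 3630 bp of RUVBL1 and 3208 bp of RUVBL2, and AHSG, the fetuin-A gene, 370 bp of RUVBL1 and 1691 bp of RUVBL2. Of the others, TTR, the transthyretin gene, had RUVBL1 only (165 bp). SERPINA1, which encodes alpha-1-antitrypsin, and TF, which encodes transferrin, had RUVBL2 only (1430 bp at SERPINA1 and 1739 bp at TF). Of 22 plasma protein genes with neither at the start, 4 had a peak within the gene, among them ALB and AFP.

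Lists of genes of other lineages lay below the shares of all coding genes, which were 16.8% for RUVBL1 and 39.1% for RUVBL2. HOX genes had RUVBL1 at 0 of 39 (interval up to 8.97%) and RUVBL2 at 2, neuronal genes RUVBL1 at 0 of 30 (up to 11.4%) and RUVBL2 at 4, and blood cell genes RUVBL1 at 1 and RUVBL2 at 2 of 30. The neuronal gene with the widest RUVBL2 peak was TUBB3 (2006 bp).

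**Figure D5:**
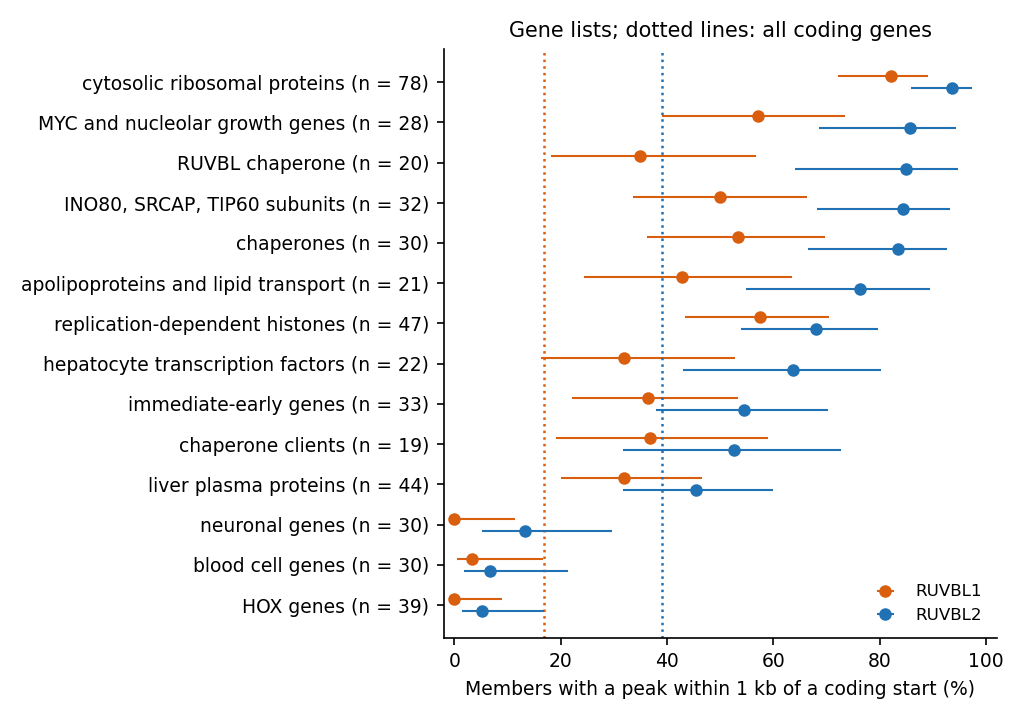
Share of the members of 14 gene lists (%, with 95% Wilson intervals) that have a RUVBL1 or a RUVBL2 peak within 1 kb of a coding start, with dotted lines for all coding genes at 16.8% (RUVBL1) and 39.1% (RUVBL2). RUVBL2 lies to the right of RUVBL1 in each list, and the ribosomal protein genes have the highest shares, at 82.1% for RUVBL1 and 93.6% for RUVBL2.

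Along the genome, the ends of chromosomes and chromosome 21 favoured RUVBL2. The outermost 5 Mb of the chromosomes held 10.6% of RUVBL1-alone peaks (9.34 to 12.1%) and 24.8% of RUVBL2-alone peaks (23.9 to 25.7%), with 15.6% of joint RUVBL1 and 15.1% of joint RUVBL2 peaks. Chromosome 21 had 19 RUVBL1 and 169 RUVBL2 peaks, 8.89 RUVBL2 peaks for each of RUVBL1, while the other chromosomes lay between 1.32 (X) and 3.51 (chromosome 18). HepG2 is known to carry extra copies of chromosomes 2, 14, 16, 17 and 20. The joint share of RUVBL1 peaks there was 68.2%, 75.9%, 73.0%, 76% and 75%, and it was 59.6% over the remaining chromosomes pooled. The remaining chromosomes varied, with 68.9% on chromosome 6, 65.2% on chromosome 19 and 47.2% on chromosome 13. Copy number and occupancy cannot be told apart in peak lists.

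In Huh7, where RUVBL2 was mapped with the same catalogue number and lot, RUVBL2 peaks lay more often at joint than at alone sites of HepG2. RUVBL1-alone sites lack RUVBL2 in HepG2 by the rule, so the values for RUVBL1 peaks are a description. A Huh7 RUVBL2 peak overlapped 29.0% of joint RUVBL1 and 35.6% of joint RUVBL2 peaks of HepG2. It overlapped 5.88% of RUVBL1-alone and 12.2% of RUVBL2-alone peaks, a difference of -6.31 points (-7.48 to -5.01). Joint minus alone was 23.1 points for RUVBL1 (21.2 to 24.9) and 23.4 points for RUVBL2 (21.7 to 25.2). With peaks redrawn as 200 bp it was 12.2 for RUVBL1 and 11.2 for RUVBL2, and with at least 50% of the peak covered 14.8 for RUVBL1 and 10.8 for RUVBL2. The difference between the alone classes was -2.31 points with at least 50% of the peak covered and -1.52 points with peaks redrawn as 200 bp. It was -1.52 points averaged over GC bins below 70% and -13.8 points with each longer list cut to its 5518 widest peaks. Huh7 MCRS1 went the other way, at 21.5% of RUVBL1-alone and 15.1% of RUVBL2-alone peaks (6.36 points, 4.45 to 8.36). Huh7 YY1 overlapped 40.2% of RUVBL1-alone and 56.6% of RUVBL2-alone peaks (-16.4 points, -18.8 to -14.0). Huh7 INO80 overlapped 38.7% of RUVBL1-alone and 40.2% of RUVBL2-alone peaks (-1.45 points, -3.81 to 0.93). At genes, Huh7 RUVBL2 was at 42.7% of starts with both ATPases in HepG2, 11.9% with RUVBL1 only, 20.5% with RUVBL2 only and 1.95% with neither. RUVBL1 was not mapped in Huh7 in the lists used here, so the RUVBL1-alone class could be followed there through its partners alone.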

How the data were processed

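The authors deposited 1 filtered peak list per factor and cell line, which holds positions and no heights, p-values or read counts. Per the submitters' processing notes, reads were handled with Bowtie2, SAMtools, MACS2, bedtools and deepTools on hg19 and dm3. Versions, and whether libraries were pooled before calling, are not given in the sources used here. Lists called at another depth or with another antibody would change width, list length and every overlap.

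Of the 14 groups with 29 libraries, the acetylated histone, input and fly-tag data were not used here. Starts were converted to 1-based coordinates. Overlap meant at least 1 bp. Genes came from GENCODE release 44 lifted to GRCh37 (19785 coding genes), and a start counted within 1 kb. GC content and sequence words were read in 300 bp about each centre, and in windows at the Ensembl canonical starts for all promoters. Shares have Wilson intervals and differences of shares Newcombe intervals. Differences of mean log2 width and mean GC content have normal intervals over peaks. The code was tested on simulated peaks. Python 3.11.15, pandas 2.3.3, numpy 2.4.6, pysam 0.24.0 and matplotlib 3.10.9 were used.

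The 14 gene lists hold 476 entries, of which 471 matched the annotation directly and 5 through an older symbol or synonym. The 50 histone entries gave 47 distinct genes: H4C2 and H4C6 were taken as H4C14, and H2BC7 and H2BC8 as a gene already listed, through synonyms that several histone genes share. The members and lists were chosen with earlier results of these data known. The genes named are the 10 widest joint and alone regions of each kind, the 5 widest alone regions without partners, the 5 most unequal pairs each way, members of the chaperone and complex lists, and the 3 widest of other lists. A few genes that this rule names are not reported here. IGFBP1, ALB, AFP, CCND1, APOB, HSP90AB1, MDM2 and further members of lists that illustrate a class were chosen after their values were seen. Alternatives are in the closing section.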

Additional observations from a re-analysis of the deposited data

How the results depend on the processing

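No paired analysis was possible because each factor has 1 list and replicates cannot be separated in it. Leaving out each replicate could not be run for the same reason. Width has no value when all peaks are redrawn as 200 bp. The settings on GC content were chosen after seeing the data. Averages over GC bins below 70% left out 3539 RUVBL2-alone and 2 RUVBL1-alone peaks of 70% GC and over. The cause of a change was not tested. Depth is unknown, so list length cannot be told apart from occupancy. Cutting the lists kept the 5518 widest peaks of each longer list, so it changed width along with length.

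In this paragraph partner, promoter and Huh7 RUVBL2 values are percentage points, RUVBL1 alone minus RUVBL2 alone. The share of RUVBL1 peaks that were joint, 64.5% as deposited, was 52.9% with at least 50% of the peak covered, 33.1% with peaks redrawn as 200 bp, 74.2% with a gap of up to 500 bp, 44.7% with lists cut to the length of RUVBL1, 59.6% without chromosomes 2, 14, 16, 17 and 20 and 62.6% at 50 to 60% GC. The share of RUVBL2 peaks was 13.6%, 14.1%, 30.4%, 41.1%, 24.7% and 35.6% under the same settings. The log2 width difference was -0.45 with 50% covered, -0.63 in the wider 50% of each list and -1.57 with lists cut. INO80 gave -12.7 at 200 bp, -14.4 in the wider 50%, -20.4 with lists cut, -3.43 without those chromosomes, 2.48 averaged over width bins and 15.3 averaged over GC bins below 70%. MCRS1 gave -16.8, -14.1, -25.6 and -6.04 under the first 4 of these and 9.80 over GC bins. YY1 gave -8.02, -10.0, -23.7 and -4.57, and 20.2 over GC bins. Promoter place gave -4.72 at 200 bp, -19.3 with the gap, -23.2 in the wider 50%, -28.6 with lists cut, -9.51 with starts within 5 kb and 15.7 over GC bins. Huh7 RUVBL2 gave -2.31 with 50% covered, -1.52 at 200 bp, -13.8 with lists cut, -7.77 without those chromosomes and -1.52 over GC bins. The GC difference was -11.1 with 50% covered, -9.98 at 200 bp, -12.2 with the gap, -13.8 in the wider 50%, -14.5 with lists cut, -12.4 without those chromosomes, -9.51 in windows of 1000 bp, -13.2 at coding starts and -8.46 away from them. Genes with RUVBL1 only, 464 as deposited, numbered 1292 with lists cut and 756 over all annotated genes. The promoter share of joint minus alone RUVBL2 peaks, 7.37 points as deposited, turned to -2.32 with 50% covered, -0.40 at 200 bp, -2.78 in the wider 50% and -4.26 with lists cut. Of 70 joint minus alone values that were computed, 66 were above 0, and the other 4 are those of the RUVBL2 promoter share. Joint minus alone was not computed for the averages over width or GC bins, or for the other definitions of a start.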
